A study of Eucalyptus grandis and Eucalyptus globulus with 10 samples.

Results

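Wood of a forest tree is laid down by differentiating xylem, in which cells made by the cambium enlarge, thicken their walls with cellulose and lignin and then die. Trees of 1 species can differ in this programme by genotype, and a clone, grown as several genetically identical trees called ramets, lets a difference that goes with the genotype be seen against the spread between trees. Described here are 100 transcripts whose level in the differentiating xylem of Eucalyptus grandis clone A lay apart from that of every other xylem sample, of 21413 features measured.

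RNA of 10 samples was hybridised, each to an array of its own. The 5 groups were mature leaf (blade without its central vein) from E. grandis clone A, and the differentiating xylem, scraped from the debarked stem, of clones A and B of E. grandis and of clones A and B of E. globulus, with 2 ramets of each. All trees were 4 years old and grown in the field at 1 site, and the 4 clones came from unrelated parent trees, so that clone A of E. grandis and clone A of E. globulus share only the letter. Leaf was sampled from clone A alone, from the trees that also gave its xylem, and each clone is 1 genotype. Each array gave 2 values per feature, 1 from each of 2 blocks of probes. Levels are given as log2 of the RMA value (a summary of the brightness of the probes of a feature), averaged over both blocks, so that a difference of 1 is 2-fold. Levels of different features cannot be compared with each other on this scale.

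The members were selected on their log2 levels in the 8 xylem arrays. For each feature a gap was taken. It was the lowest of the 2 clone A arrays minus the highest of the other 6 xylem arrays (those of E. grandis clone B and both E. globulus clones), or the lowest of the 6 minus the highest clone A array, whichever was larger. The 100 features with the largest gap were kept, among the 20392 whose mean in E. grandis clone B lay within 1 log2 unit of the E. globulus mean. A further 18 features had gaps as large but fell outside that limit, 11 of them higher and 7 lower in clone A xylem. The values of clone A xylem against the 6 arrays thus chose the members and are described without a test. The leaf arrays took no part in the choice. No feature was left out for a low value, so that all 100 members entered every test, and each had 9 probe pairs.

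The feature IDs are not paired with genes in the files used here, and 0 of the 21413 matched the reference list of E. grandis genes. The transcripts are therefore given by ID, without gene names, roles or sequences, no gene list of the pathways of wall formation could be counted, and the labelled tissues were not checked against marker genes. The RNA came from whole tissue, in which fewer cells of a type and less RNA per cell cannot be told apart. Probe brightness was also not set against the sequence of each clone, so a difference is one of hybridisation signal.

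Array medians lay between 219 and 234 RMA units. The spread of the features on each array (interquartile range) was less even, from 2.11 log2 units on leaf ramet 1 to 2.84 on E. globulus clone A ramet 1. Leaf ramet 1 was less precise than the rest, with an SD of 0.587 log2 units between its blocks over all features, against 0.285 to 0.364 on the other 9 arrays. The array numbers fell into a later series (both leaf arrays, clone A xylem ramet 1 and clone B ramet 2) and an earlier series (the other 6 arrays). Clone A xylem had 1 array in each. The deposited table of the series held the same values, but 9 of its 10 columns matched the array file of another sample, and its columns stood in ascending order of array number. The array files were used, and the results that the table's own column names give stand in the closing section.

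Of the 100 transcripts, 69 were higher and 31 lower in clone A xylem than in the other xylem. This split rested on both trees: without ramet 1 of clone A xylem the rule gave 36 higher members of 100, and without ramet 2 it gave 88. Among all features, clone A xylem lay above all 6 other xylem arrays in 11.4% and below them in 13%. The gaps of the members ran from 1.15 to 4.22 log2 units, or from 2.21-fold to 18.7-fold between the nearest arrays, with 9 members at a gap of 2 or more. Taken as means, the higher members differed from the 6 arrays by 1.52 to 4.96 log2 units (median 2.02), and the lower members by -1.43 to -3.29 (median -2.0). In each block taken alone all 100 members kept a gap above 0, with the lowest at 0.82 in each. The mean of these same blocks chose the members, so that this is no independent check of them. Within the later series clone A xylem ramet 1 differed from clone B ramet 2 by 1.15 to 5.16 log2 units. Within the earlier series ramet 2 differed from the nearest of the 5 other arrays by 1.15 to 4.22, as the rule itself required of both.

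**Figure D1:**
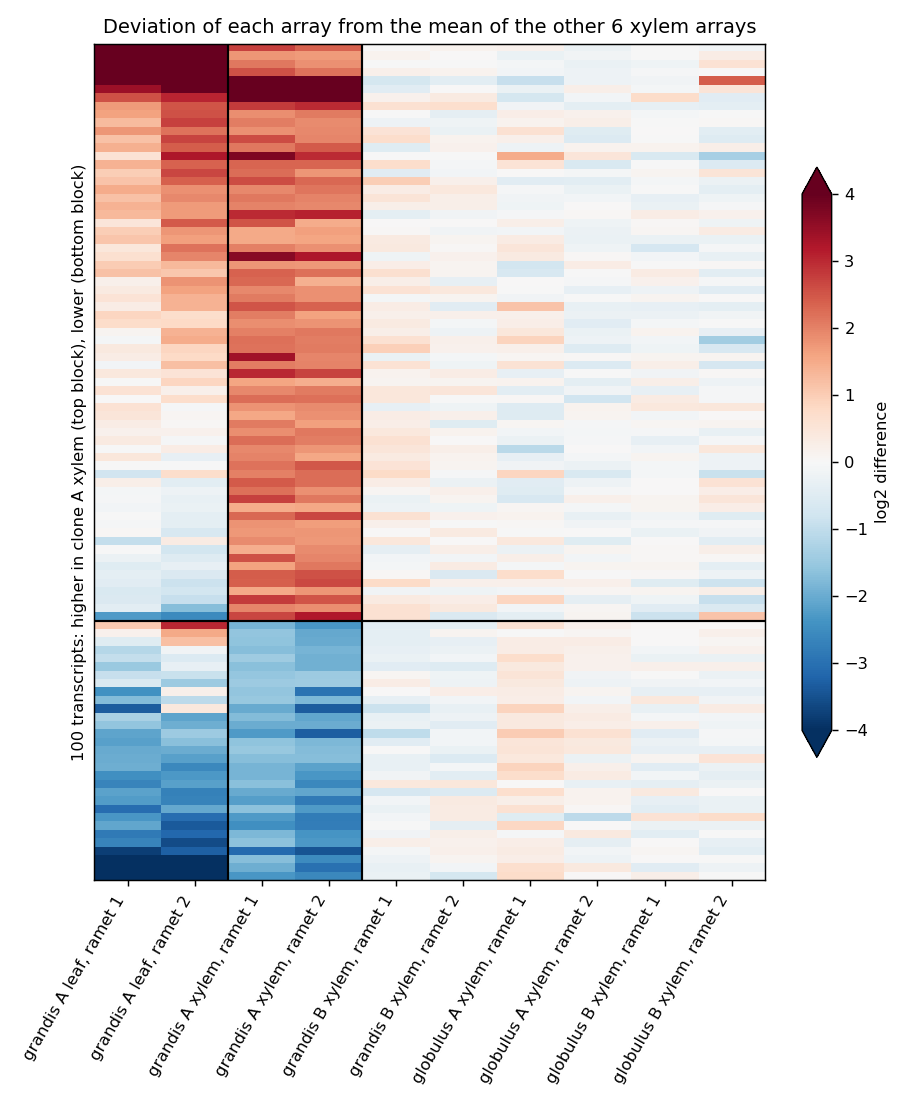
Each row is 1 of the 100 transcripts and each column 1 array, coloured by the log2 difference of that array from the mean of the 6 xylem arrays of E. grandis clone B and E. globulus (colours end at 4 units either way). The 69 higher and 31 lower members form the top and bottom blocks, sorted within each by the leaf difference; the clone A xylem columns are red and blue by choice of the members, while the leaf columns run from red through white to blue in the top block and are mostly blue in the bottom one.

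LYPTUS00S00019549 had the widest gap. Its levels were 11.38 and 10.94 in clone A xylem, against 5.76, 6.18 and 6.72 (lowest, median and highest) in the other 6 xylem arrays. The group means differed 31.1-fold, and the gap was 4.22 log2 units. LYPTUS00S00016129 came next, with 12.63 and 12.82 in clone A xylem against 7.32, 8.05 and 8.75 in the 6 arrays, 26.1-fold apart in the mean. These 2 transcripts stood well clear of the rest, since the third gap was 2.88, that of LYPTUS00S00007586 at 10.74 and 10.34 in clone A xylem, against 6.81, 7.08 and 7.46 in the 6 arrays.

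The next 7 higher members had gaps of 1.84 to 2.66. LYPTUS00S00015445 had 9.01 and 9.11 in clone A xylem, against 5.65, 6.05 and 6.34 in the other xylem. LYPTUS00S00010896 had 8.98 and 8.68 in clone A xylem, against 5.65, 5.99 and 6.28. LYPTUS00S00004115 had 8.97 and 8.59, against 6.01, 6.25 and 6.42. In all 3 the ramets of clone A lay within 0.4 log2 units of each other. LYPTUS00S00004377 had 9.10 and 9.29 in clone A xylem, against 5.90, 6.07 and 6.99 in the 6 arrays, of which the clone B arrays were the 2 brightest. LYPTUS00S00011881 had 9.93 and 9.57, against 7.19, 7.38 and 7.59, and LYPTUS00S00005193 had 8.52 and 8.87, against 5.93, 6.54 and 6.64. LYPTUS00S00010179 was the member of these 10 whose clone A trees differed most, at 9.22 in ramet 1 and 7.84 in ramet 2, against 5.60, 5.94 and 6.0 in the 6 arrays.

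Among the lower members, LYPTUS00S00012061 had the widest gap. It had 6.95 and 6.61 in clone A xylem, against 9.66, 10.07 and 10.40 in the other xylem, 9.8-fold apart in the mean. LYPTUS00S00001453 had 7.32 and 7.02 in clone A xylem, against 9.43, 9.65 and 10.60 in the 6 arrays. LYPTUS00S00009586 had 7.99 and 7.38, against 9.86, 10.21 and 10.56. In each of the 3 the ramets of clone A lay within 0.7 log2 units of each other.

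LYPTUS00S00000001 had 12.02 and 10.98 in clone A xylem, against 13.51, 13.81 and 14.63 in the other xylem. LYPTUS00S00004326 had 10.05 and 9.79 in clone A xylem, against 11.67, 12.36 and 13.10. LYPTUS00S00017911 had 9.90 and 9.08, against 11.39, 11.61 and 11.87. The other 4 of the 10 widest lower gaps were LYPTUS00S00012167, LYPTUS00S00020947, LYPTUS00S00009617 and LYPTUS00S00020939, with gaps of 1.42 to 1.53 and clone A means of 6.80 to 9.07, against 8.90 to 10.98 in the 6 arrays.

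**Figure D2:**
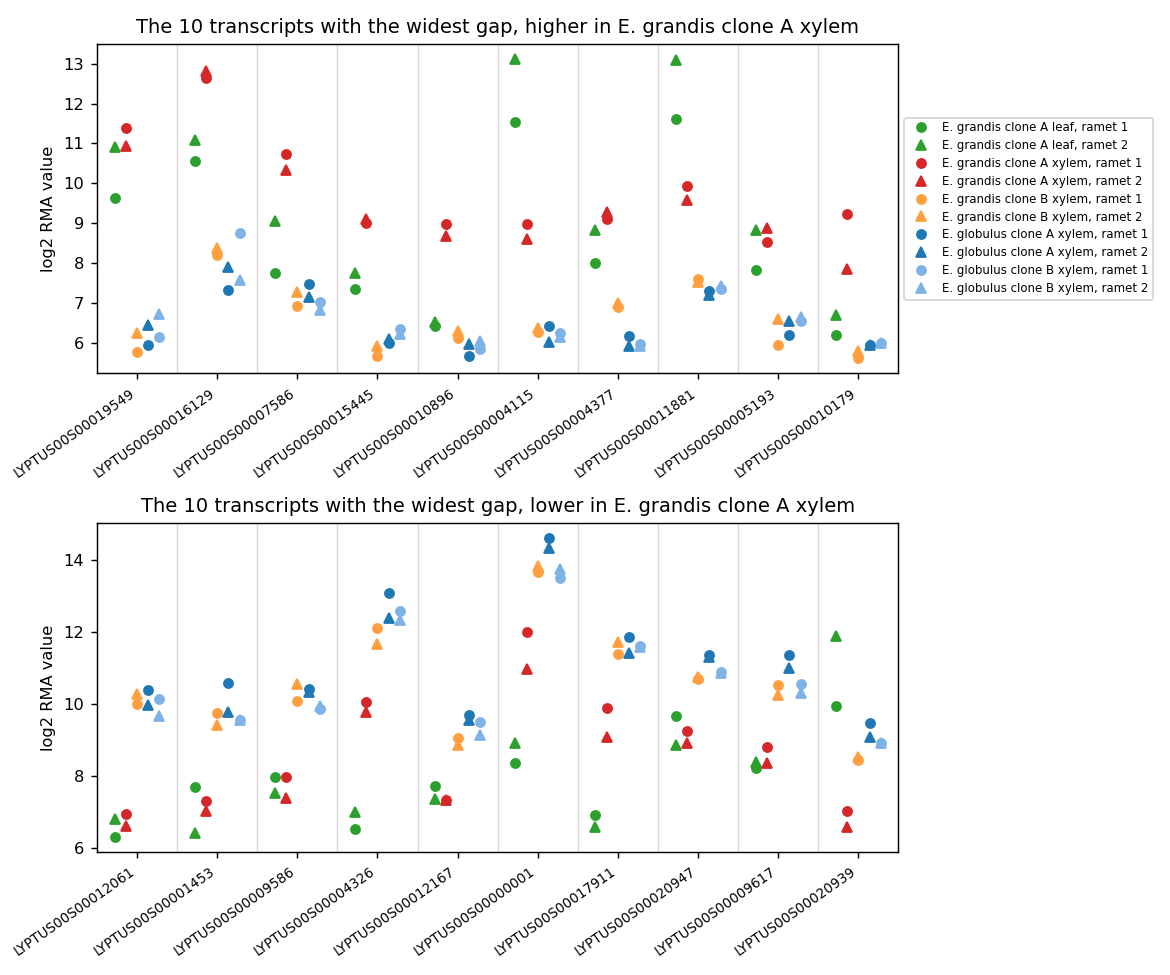
Log2 RMA values on every array for the 10 transcripts with the widest gap that were higher (top) and the 10 that were lower (bottom) in E. grandis clone A xylem, with circles for ramet 1 and triangles for ramet 2. Leaf of clone A (green) lay far above its xylem (red) in LYPTUS00S00004115 and LYPTUS00S00011881, and with or near its xylem in most of the lower members.

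At the edge of the set, LYPTUS00S00015747 (gap 1.1464) and LYPTUS00S00001354 (gap 1.1460) were the last 2 members. Clone A xylem had 10.53 and 10.76 for the first of these, against 7.63, 8.46 and 9.38 in the 6 arrays, and 8.42 and 8.43 for the other, against 9.58, 10.08 and 10.68. The first 2 features left out were LYPTUS00S00012345 (gap 1.1460) and LYPTUS00S00008088 (gap 1.1449), so that the edge of the set does not mark a break in the values. LYPTUS00S00012345 was lower in clone A xylem, at 6.95 and 6.48 against a mean of 8.48 in the 6 arrays, and LYPTUS00S00008088 higher, at 9.86 and 9.32 against 7.43.

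The other 3 clones had fewer transcripts that stood as far apart. With each clone put in the place of clone A, and with the same limit between its sister clone and the other species, a gap of at least that of the last member was found for 100 features in E. grandis clone A, 39 in E. grandis clone B (20 higher, 19 lower), 3 in E. globulus clone A and 3 in E. globulus clone B. No overlap at all with the other 6 xylem arrays was found for 24.4% of features in E. grandis clone A, 10.1% in E. grandis clone B, 12.9% in E. globulus clone A and 11.4% in E. globulus clone B. The counts moved with the arrays used. Leaving out an array can keep or widen a gap but never narrow it. Apart from features moved past the limit, a rise of the counts was thus built in, and its size differed between arrays. Leaving out 1 of the 8 arrays at a time gave 107 to 296 for E. grandis clone A (296 without its own ramet 1, 201 without its ramet 2, 177 without ramet 1 of E. grandis clone B and 151 without ramet 1 of E. globulus clone A). It gave 41 to 85 for E. grandis clone B, with 85 without its ramet 1. For E. globulus clone A it gave 3 to 177, with 177 without its own ramet 2 and at most 16 in the other cases. For E. globulus clone B it gave 3 to 29, with 29 without its own ramet 1 and at most 12 in the other cases. Clone A had the highest count in each case but that of leaving out E. globulus clone A ramet 2, where E. globulus clone A had 177 and E. grandis clone A 107. The widest single gap was 4.79, in E. globulus clone B, against 4.22 in E. grandis clone A. The difference between clones was not tested.

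**Figure D3:**
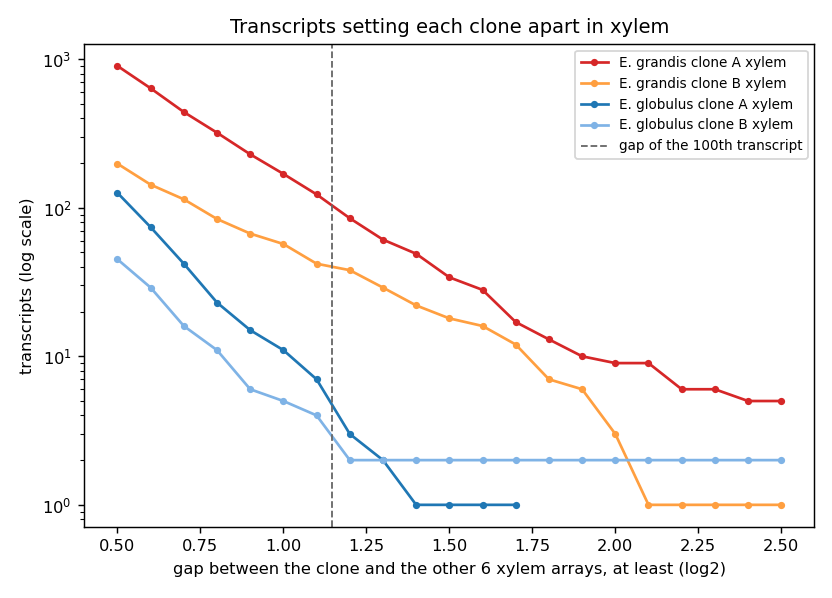
Number of transcripts (log scale) whose gap between 1 clone and the other 6 xylem arrays was at least the value on the horizontal axis, in log2 units, for each of the 4 clones with the same limit on its sister clone. The curve of E. grandis clone A is the highest over the plotted range of 0.5 to 2.5; at the dashed line, the gap of the last member, it stands at 100 transcripts, against 39 in E. grandis clone B and 3 in each E. globulus clone.

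Leaf of the same 2 trees shows whether the level found in clone A xylem was also the level in another organ of that genotype. Leaf of the other clones was not sampled. The leaf level was set against the 6 other xylem arrays and against clone A xylem, with limma and p-values adjusted over all 21413 features (Benjamini-Hochberg, threshold 0.05). The first comparison shares the 6 arrays with the rule and the second shares the clone A xylem arrays, so that neither is independent of the choice of members, and a difference of leaf from xylem also holds the difference between the organs. The leaf values alone took no part in it.

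Of the 69 members higher in clone A xylem, 32 were higher in leaf than in the 6 other xylem arrays, 4 were lower and 33 did not pass the test. Over all features, 15.4% were higher and 17.8% lower. The median leaf difference of these members from the 6 arrays was 0.76 log2 units, beside a median of -0.01 over all features. By the arrays themselves, both leaf arrays lay above all 6 in 31 members, as against 16.8% of all features and 30.4% of the 2231 other features inside the limit that lay above the 6 arrays in clone A xylem. Against clone A xylem, 41 of the 69 were lower in leaf, 4 were higher and 24 did not pass the test, beside 13.3% lower and 11.8% higher over all features. Their median leaf difference from clone A xylem was -1.45, beside 0.04 over all features.

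The 69 higher members fell into unlike groups by these calls. In 30 the leaf level did not pass the test against the 6 arrays and was lower than in clone A xylem, as in 3.18% of all features and in 19.5% of the 2231 others above without overlap. In 21 leaf was higher than the 6 arrays and did not pass the test against clone A xylem, as in 4.74% of all features and in 18.6% of the 2231. In 7 (0.0747% of all features) leaf lay between, higher than the 6 arrays and lower than clone A xylem, in 4 it was higher than both (10.6%), in 4 lower than both (10%), and in 3 it passed neither test (62.4%). These 3, named after their values were seen, were LYPTUS00S00006935, LYPTUS00S00017180 and LYPTUS00S00021119. By the rule, clone A xylem lay far from the 6 arrays in every member, which a leaf level between them or different from just 1 of them requires in part. The 4 members higher and the 4 lower than both were smaller shares than those of all features.

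The transcript with the widest gap belonged to the 21. LYPTUS00S00019549 had 9.64 and 10.90 in leaf, against 11.38 and 10.94 in clone A xylem and at most 6.72 in the 6 arrays. Leaf was above the 6 arrays by 4.07 log2 units (SE 0.335, limma adjusted p 2.06e-06), and its difference from clone A xylem was -0.90 (SE 0.41, limma adjusted p 0.152). Both organs of clone A thus lay above all xylem arrays of the other clones. The difference from clone A xylem passed the test without leaf ramet 2, at -1.53 (limma adjusted p 0.0109). LYPTUS00S00021177, picked after its values were seen, had 11.02 and 11.99 in leaf, 11.44 and 10.91 in clone A xylem, and 5.95 to 6.72 on 5 of the 6 other arrays. The sixth, E. globulus clone B ramet 2, stood at 9.29, which reduced its gap to 1.62.

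LYPTUS00S00004377 and LYPTUS00S00005193 also belonged to the 21. In LYPTUS00S00004377 both leaf arrays lay below the 9.10 and 9.29 of clone A xylem. LYPTUS00S00004377 had 8.01 and 8.82 in leaf, 2.10 above the 6 arrays (SE 0.244, limma adjusted p 3.32e-05) and -0.78 from clone A xylem (SE 0.299, limma adjusted p 0.0812). Without leaf ramet 2 this last difference was -1.19 and passed the test (limma adjusted p 0.00809). LYPTUS00S00005193 had 7.82 and 8.84 in leaf, which overlapped the 8.52 and 8.87 of clone A xylem, and it lay 1.93 above the 6 arrays (SE 0.294, limma adjusted p 0.00028).

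The 7 members between included LYPTUS00S00016129, with 10.57 and 11.07 in leaf. It lay 2.80 above the 6 arrays (SE 0.311, limma adjusted p 2.37e-05) and 1.91 below clone A xylem (a leaf difference of -1.91, SE 0.381, limma adjusted p 0.0027). LYPTUS00S00015445 had 7.34 and 7.75 in leaf, between clone A xylem and the other xylem. Its leaf was 1.51 above the 6 arrays (SE 0.212, limma adjusted p 0.000151) and differed from clone A xylem by -1.51 (SE 0.26, limma adjusted p 0.000941). LYPTUS00S00007586 had 7.75 and 9.05 in leaf, of which ramet 1 was close to the highest of the 6 arrays, 7.46. Its leaf was 1.30 above the 6 arrays (SE 0.313, limma adjusted p 0.00663), and it lost this call without leaf ramet 2, at 0.65 (limma adjusted p 0.096), and with the array-number series as a block, at 0.99 (limma adjusted p 0.194).

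In 4 members leaf was the brightest tissue of all, and clone A xylem came between leaf and the other xylem. LYPTUS00S00004115 had 11.53 and 13.12 in leaf, against 8.97 and 8.59 in clone A xylem and 6.01 to 6.42 in the 6 arrays. LYPTUS00S00011881 had 11.60 and 13.10 in leaf, against 9.93 and 9.57 in clone A xylem and 7.19 to 7.59. The other two were LYPTUS00S00008216, with 11.68 and 12.94 in leaf against 8.03 and 7.98 in clone A xylem and 6.0 to 6.56, and LYPTUS00S00007901, with 14.44 and 14.93 against 10.98 and 10.70 and 8.60 to 9.44. Leaf exceeded clone A xylem by 2.60 to 4.31 log2 units in these 4, and the 6 arrays by 4.96 to 6.09.

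The level of other leaf transcripts in clone A xylem was measured beside these 4. There were 197 features at least 16-fold brighter on both leaf arrays than in the mean of the 8 xylem arrays. Of these, 3 were members (LYPTUS00S00004115, LYPTUS00S00007901 and LYPTUS00S00008216), beside 100 of all 21413 features. That mean includes clone A xylem, so that features raised there were less likely to be listed. Clone A xylem lay above the 6 other arrays in 26 of the 197, below them in 15 and overlapped them in 156, beside the 11.4% above and 13% below among all features. Their summed level was 41254 and 42057 RMA units in clone A xylem, within the range of 32469 to 42381 over the 6 arrays, and their median level was 6.96 and 7.11 in clone A xylem against 6.60 to 7.16 in the 6. The part of leaf material in the level of single members was not tested.

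At the other end, leaf was lower than all other samples in LYPTUS00S00000289. It had 6.65 and 6.37 in leaf, against 11.59 and 12.12 in clone A xylem and 8.04, 8.77 and 10.04 in the 6 arrays. Leaf differed from clone A xylem by -5.35 (SE 0.566, limma adjusted p 2.5e-05) and from the 6 arrays by -2.40 (SE 0.462, limma adjusted p 0.00153). The second call was lost with the array-number series as a block, at -1.68 (limma adjusted p 0.0971). Xylem of every clone thus exceeded leaf, and clone A xylem exceeded the other xylem. LYPTUS00S00017707 and LYPTUS00S00017567 had their highest levels in clone A xylem, at 12.25 and 11.98 and at 12.54 and 12.78, against leaf values of 8.87 and 8.55 and of 9.67 and 9.28. Their leaf differences from clone A xylem were -3.41 (SE 0.391, limma adjusted p 4.81e-05) for LYPTUS00S00017707 and -3.18 (SE 0.288, limma adjusted p 7.9e-06) for LYPTUS00S00017567, while both overlapped the 6 arrays in leaf. The differences from these arrays were -0.75 for LYPTUS00S00017707 (limma adjusted p 0.0987) and -0.66 for LYPTUS00S00017567 (limma adjusted p 0.0489). The call of LYPTUS00S00017567 was lost in 13 of 19 alternatives, at adjusted p up to 0.629. LYPTUS00S00017707 was called with ramet as a block (limma adjusted p 0.0458), from block 1 alone (limma adjusted p 0.0288) and without E. globulus clone A ramet 2 (limma adjusted p 0.0136). The remaining members called lower in leaf than in both, named after their values were seen, were LYPTUS00S00017111, with 9.17 and 9.05 in leaf against 11.31 and 11.54 in clone A xylem, and LYPTUS00S00020994, with 7.69 and 6.41 against 10.06 and 9.99.

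Some of the widest gaps belonged to transcripts whose leaf level lay near that of the other xylem. LYPTUS00S00010896 had 6.41 and 6.52 in leaf, where clone A xylem had 8.98 and 8.68 and the 6 arrays reached 6.28. Leaf differed from clone A xylem by -2.36 (SE 0.26, limma adjusted p 3.35e-05) and from the 6 arrays by 0.49 (SE 0.212, limma adjusted p 0.106). LYPTUS00S00010179 had 6.18 and 6.68 in leaf, with a difference of -2.10 from clone A xylem (SE 0.389, limma adjusted p 0.00161) and of 0.56 from the 6 arrays (SE 0.318, limma adjusted p 0.225). The leaf level of both stood nearer to the 6 arrays than to the xylem of the same trees. Leaf and the 6 arrays were both dim here, and background signal was not measured. The mean of the 6 arrays lay below its median over all features (7.84) in 50 of the 69 higher members, beside 0 of the 31 lower ones. By the rule the 6 arrays were the low side in the higher members and the high side in the lower ones, which favours this contrast.

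**Figure D4:**
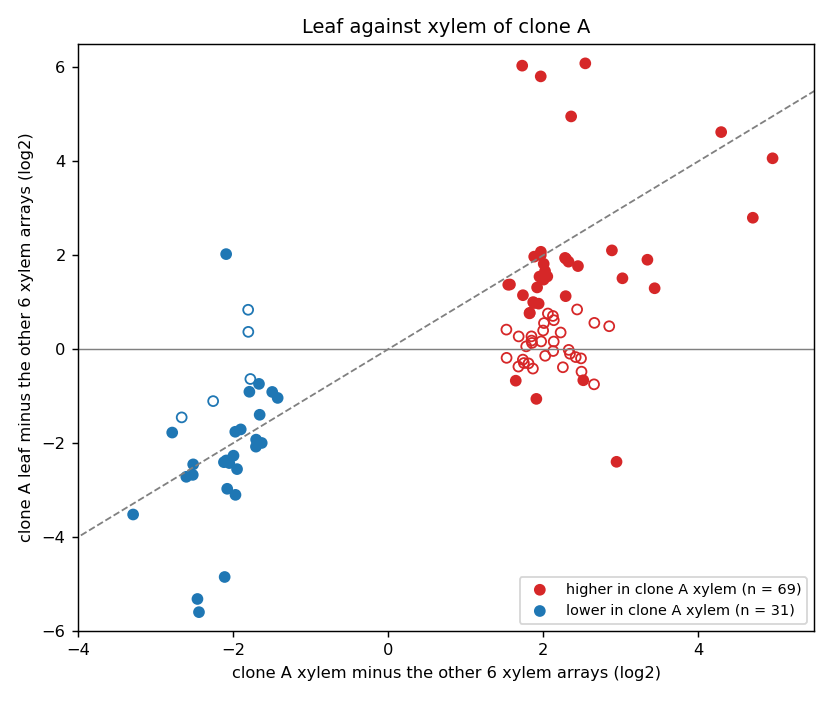
Each point is 1 of the 100 transcripts, by the log2 difference of clone A xylem (horizontal) and of clone A leaf (vertical) from the same 6 xylem arrays; filled points passed the test for leaf (limma adjusted p under 0.05), open points did not, and on the dashed line leaf equals clone A xylem. The horizontal position was fixed by the choice of members and both axes share the 6 arrays; most of the 31 lower members gather near the dashed line, while many of the 69 higher members lie along the line of no leaf difference.

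Of the 31 members lower in clone A xylem, 25 were lower in leaf than in the 6 other xylem arrays, 1 was higher and 5 did not pass the test, beside 17.8% lower and 15.4% higher over all features. The median leaf difference from the 6 arrays was -2.0 log2 units. Both leaf arrays lay below all 6 in 24 members, as against 19.1% of all features and 45.7% of the 2600 other features inside the limit that lay below the 6 arrays in clone A xylem. Against clone A xylem, 4 of the 31 were lower in leaf, 5 were higher and 22 did not pass the test, with a median difference of -0.11; both shares are near the 13.3% lower and 11.8% higher over all features. In 20 members leaf was lower than the 6 arrays and did not pass the test against clone A xylem, as in 7.77% of all features and in 31.2% of the 2600 others below without overlap. Whether this share differed from that of the higher members was not tested.

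LYPTUS00S00012061 showed the pattern most widely. It had 6.30 and 6.80 in leaf, against 6.95 and 6.61 in clone A xylem and at least 9.66 in the other xylem. Leaf differed from the 6 arrays by -3.52 (SE 0.25, limma adjusted p 6.37e-07) and from clone A xylem by -0.23 (SE 0.306, limma adjusted p 0.712). LYPTUS00S00009586 had 7.96 and 7.53 in leaf, both inside the clone A xylem values of 7.99 and 7.38. Its leaf difference from the 6 arrays was -2.45 (SE 0.245, limma adjusted p 9.63e-06). LYPTUS00S00001453 had 7.69 and 6.42 in leaf and a difference from the 6 arrays of -2.72 (SE 0.33, limma adjusted p 4.77e-05). Both organs of clone A thus lay below all xylem arrays of the other clones for these transcripts. Background signal was not measured, so that how far the low values stood above it is not known. As a rough mark of dim signal, the median over all features was taken, which splits them evenly. Among the 31 lower members, clone A xylem lay below its median (7.80) in 11 and leaf below its own (7.82) in 12.

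LYPTUS00S00009617, LYPTUS00S00020947, LYPTUS00S00012167 and LYPTUS00S00001354 did likewise. Their leaf values were 8.21 and 8.39, 9.67 and 8.86, 7.72 and 7.36, and 8.14 and 7.98. In the same order they had leaf differences from the 6 arrays of -2.37, -1.71, -1.76 and -2.08 and from clone A xylem of -0.28, 0.20, 0.21 and -0.37. The first 4 of these differences passed the test (limma adjusted p 7.3e-06, 0.000173, 5.19e-05 and 3.35e-05) and the last 4 did not (limma adjusted p 0.594, 0.759, 0.683 and 0.472).

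In 3 of the named lower members the leaf level was below that of clone A xylem. LYPTUS00S00004326 had 6.54 and 6.99 in leaf, against 10.05 and 9.79 in clone A xylem and 11.67 to 13.10 in the 6 arrays. LYPTUS00S00000001 had 8.35 and 8.92 in leaf, against 12.02 and 10.98 in clone A xylem. LYPTUS00S00017911 had 6.91 and 6.59 in leaf, against 9.90 and 9.08. Their leaf differences from clone A xylem were -3.16 (SE 0.317, limma adjusted p 1.67e-05), -2.86 (SE 0.353, limma adjusted p 8.45e-05) and -2.74 (SE 0.322, limma adjusted p 5.67e-05), in that order. In all 3 every xylem array was brighter than leaf, and clone A xylem came between leaf and the xylem of the other clones. The other member lower in leaf than in both was LYPTUS00S00002112, with 7.13 and 6.20 in leaf against 8.13 and 7.47 in clone A xylem, named after its values were seen.

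A few lower members went the other way. LYPTUS00S00020939 had 9.93 and 11.90 in leaf, against 7.02 and 6.58 in clone A xylem and 8.45, 8.92 and 9.46 in the 6 arrays, so that leaf was the brightest and clone A xylem the dimmest tissue. Leaf exceeded clone A xylem by 4.12 (SE 0.49, limma adjusted p 6.27e-05) and the 6 arrays by 2.02 (SE 0.4, limma adjusted p 0.00184). The second call was lost with the array-number series as a block, at 1.80 (limma adjusted p 0.0638). LYPTUS00S00011708 had 10.07 and 11.41 in leaf, against 8.34 and 7.85 in clone A xylem and 9.50, 9.96 and 10.11 in the 6 arrays. Leaf exceeded clone A xylem by 2.65 (SE 0.395, limma adjusted p 0.000348). LYPTUS00S00014118 had 9.31 and 11.00 in leaf, against 8.19 and 7.77 in clone A xylem, a difference of 2.17 (SE 0.435, limma adjusted p 0.00269). The leaf level of both did not pass the test against the 6 arrays, with differences of 0.84 (limma adjusted p 0.0682) and 0.37 (limma adjusted p 0.513). Without leaf ramet 1 both passed it, at 1.51 (limma adjusted p 0.00158) and 1.22 (limma adjusted p 0.00257). LYPTUS00S00011708 also passed it after quantile scaling (limma adjusted p 0.0311), from block 1 alone (limma adjusted p 0.0287) and with the interquartile range of each array as a covariate (limma adjusted p 0.0131). The other lower members that passed the test above clone A xylem in leaf were LYPTUS00S00012362 and LYPTUS00S00004469, of which the second was also below the 6 arrays, and LYPTUS00S00000097 passed neither test; these 3 were named after their values were seen.

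The 2 leaf arrays differed more in these transcripts than the 2 xylem arrays of clone A, which came from the same trees. Between its blocks, leaf ramet 1 had an SD of 0.639 log2 units over the members, against 0.333 for leaf ramet 2. The part of this lower precision in the leaf differences was not tested. The median absolute difference between ramets over the 100 members was 0.64 log2 units in leaf and 0.26 in clone A xylem. Over all features it was 0.52 and 0.22, so that the same order held there. For a given mean the rule favoured clone A xylem ramets close to each other, but those of the members were no closer than those of all features. Leaf ramet 2 exceeded leaf ramet 1 in 45 of the 69 higher and 19 of the 31 lower members, 64 in all, against 41.5% of all features. It did so in 59.7% of the 2231 other features above without overlap and in 45.2% of the 2600 others below. The widest case, LYPTUS00S00012730, chosen after its values were seen, had 7.32 in leaf ramet 1 and 11.07 in leaf ramet 2, and its xylem values of 8.64 and 7.32 in ramets 1 and 2 of clone A ran the opposite way. Its leaf level passed neither test. In xylem, ramet 1 exceeded ramet 2 in 27 of the 31 lower members and 43 of the 69 higher ones, against 45.9% of all features. Among the 2600 others below without overlap the share was 65.0%, and among the 2231 others above 49.7%. In the lower members ramet 2 was thus mostly the farther of the 2 from the other clones. The rule used these xylem values.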

How the data were processed

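Custom NimbleGen arrays of 10 samples, 1 array each, were analysed; replicates are ramets, separate trees of 1 clone, so that p-values measure the spread between these trees. The deposited intensity values, 1 per feature in each of 2 blocks of probes, had been made by the authors with RMA per the submitters' processing notes (version not given in the sources used here). No counts exist, and the number of arrays limits the precision.

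Here each value was taken as log2, both blocks were averaged, and nothing was normalised again or left out. limma 3.58.1 in R 4.3.3 fitted 1 mean per group over all 10 arrays, with Benjamini-Hochberg adjustment over 21413 features and a threshold of 0.05. The fit was tested on simulated data. The members and lists were chosen with earlier results of these data known. Transcripts were named by rule: the 10 widest gaps in each direction, the 3 highest and 3 lowest leaf means relative to clone A xylem among the higher and among the lower members, and the last 2 members, 29 in all after overlaps; with them stand the first 2 features left out. Others are marked as chosen after their values were seen. Planned gene lists and tissue markers could not be counted, because no feature ID matched a gene.

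Per the labels, same-numbered leaf and xylem samples of clone A came from the same trees. The ramet differences in leaf and xylem correlated at -0.354 across features. The fit with ramet number as a block over all arrays called 63 members in leaf against the other 6 xylem arrays (62 without it). It called 53 in leaf against clone A xylem (54 without it). That block gives same-numbered ramets of every clone a shared effect, so that it does not pair only the leaf and xylem of the clone A trees.

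Alternatives were quantile and median scaling, single blocks, other limits, a filter on dim features, and the array-number series or clone as a block. Others were the interquartile range of each array as a covariate, fewer arrays, each array left out, and the deposited table with its columns as named.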

Additional observations from a re-analysis of the deposited data

Results flagged for a closer look

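Among the 29 transcripts named by rule, 58 sets of 4 or more arrays were examined. An array was flagged where its distance from the nearest other array was large for the range of its set (Dixon's criterion at 95%). This flagged 2 arrays. The 1 in 20 of this criterion holds for arrays drawn from 1 population. The arrays here came from unlike clones and took part in the choice of members, so the number due to chance is not known. The sets of 4 E. globulus arrays lie within the sets of 6, so that the 58 are not separate. For LYPTUS00S00001453, E. globulus clone A ramet 1 stood at 10.60, with the other 5 of the 6 xylem arrays at 9.43 to 9.79. For LYPTUS00S00007901, E. globulus clone B ramet 2 stood at 9.44, with the other 5 at 8.60 to 8.86. In LYPTUS00S00001453 the high array lay on the far side from clone A xylem, and in LYPTUS00S00007901 it was the array nearest to clone A xylem. No difference between groups and no unused measurement was added to these.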

How the results depend on the processing

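The membership followed single arrays more than the scaling. Quantile scaling kept 86 of the 100 members and median scaling 94, block 1 alone 83 and block 2 alone 76, a limit of 0.5 between clone B and E. globulus 74 and a limit of 2 kept 88, with 67 to 74 members higher in clone A xylem. Leaving out 1 xylem array kept 56 (without clone A ramet 1) to 93 members, with 62 without clone A ramet 2 and 66 without E. globulus clone A ramet 1. The members higher in clone A xylem then numbered 36 (without its ramet 1) to 88 (without its ramet 2). Members with both leaf arrays on the side of clone A xylem numbered 55. Over all features, both leaf arrays lay above the 6 other xylem arrays in 16.8% and below them in 19.1%. With 1 array left out and the set chosen anew each time, they numbered 47 to 71. With the set kept as it was, the limma test called 62 members in leaf against the other 6 xylem arrays and 54 in leaf against clone A xylem. These counts were 42 and 45 with the array-number series as a block and 72 and 62 with the interquartile range of each array as a covariate. Over all features these tests called 7111 and 5380, as against 4052 and 3977 with the series as a block and 9339 and 7175 with the covariate. For the count of gaps in each clone, quantile scaling (added after seeing the data, as were the arrays left out here) gave 109, 43, 7 and 3 for E. grandis clones A and B and E. globulus clones A and B. The arrays left out gave 107 to 296, 41 to 85, 3 to 177 and 3 to 29, where a rise was built in. For the 29 named transcripts, 1102 tests under the alternatives other than the deposited table gave 31 changes of call in 10 transcripts and 0 reversals. LYPTUS00S00015747, the member at the edge, differed from clone A xylem in leaf by -2.17 (limma adjusted p 0.0117) and lost this call in 4 alternatives (adjusted p 0.0513 to 0.0878), among them those without clone A xylem ramet 1 or ramet 2 or leaf ramet 1. The causes were not tested.

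The deposited table with its columns taken as named gave other results throughout. The rule applied anew to it chose 100 features that shared 0 with the 100 members. In 96 of these other features both arrays named as leaf lay on the side of those named as clone A xylem (counted after seeing the data). The columns so named held E. globulus xylem arrays. In the 100 members kept as they were, the table called 0 in leaf against the 6 arrays by limma (25 at an unadjusted p under 0.05). It called 12 of all features there, against 7111 from the array files. Against clone A xylem it called 0 members (0 at an unadjusted p under 0.05; 2 of all features called, against 5380). The leaf difference from the 6 arrays reversed in 20 named transcripts: LYPTUS00S00019549 at -2.73, LYPTUS00S00016129 at -2.44, LYPTUS00S00007586 at -1.78, LYPTUS00S00015445 at -1.18, LYPTUS00S00004115 at -2.97, LYPTUS00S00004377 at -2.29, LYPTUS00S00011881 at -2.48, LYPTUS00S00005193 at -1.15, LYPTUS00S00008216 at -2.47 and LYPTUS00S00007901 at -2.39 among the higher members. Among the lower members it was 2.07 for LYPTUS00S00012061, 1.61 for LYPTUS00S00001453, 1.31 for LYPTUS00S00009586, 2.93 for LYPTUS00S00004326, 1.36 for LYPTUS00S00012167, 2.33 for LYPTUS00S00000001, 2.36 for LYPTUS00S00017911, 1.18 for LYPTUS00S00020947, 1.34 for LYPTUS00S00009617 and 1.73 for LYPTUS00S00001354. The difference from clone A xylem reversed in 8, at 0.57 for LYPTUS00S00016129, 0.24 for LYPTUS00S00015445, 0.12 for LYPTUS00S00010896, -0.027 for LYPTUS00S00004115, 0.050 for LYPTUS00S00010179, 0.27 for LYPTUS00S00000289, -0.34 for LYPTUS00S00020939 and -0.26 for LYPTUS00S00014118. These reversals go with the 9 columns that match the array of another sample. With ramet number as a block over all arrays, 63 and 53 members were called, and no count moved by more than 1.5 times. LYPTUS00S00017707 in leaf against the 6 arrays was the single named transcript whose call changed. This block joins same-numbered trees of unrelated clones, so that the same-tree pairing of leaf and xylem was not fitted by itself.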
